A study of Mus musculus with 6 samples.

Results

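A set of 10 genes of the interleukin-1 (IL-1) family and of the inflammasome was followed by symbol in bone marrow RNA of mice: Il1a, Il1b, Il18, Il1rn, Il1r2, Nlrp3, Pycard, Casp1, Casp4 and Gsdmd. All 10 were found among the 46333 genes of the deposited tables. Marrow cells were sequenced in 6 libraries. Of these, 3 came from mice labelled control and negative control, and 3 from mice labelled CUMS and depression, which had been kept for 4 weeks under chronic unpredictable mild stress (CUMS), in which mild stressors alternate. Strain, age and sex are not given in the sources used here, nor whether each library came from a single animal, so that p-values speak of the spread among these libraries, which may be technical.

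IL-1 signalling is set by several layers of control. IL-1 beta and IL-18 are made as inactive precursors, and a protein complex, the inflammasome, cuts them: a sensor such as NLRP3 recruits the adaptor ASC (encoded by Pycard), which activates caspase-1. Caspase-1, and caspase-11 (the product of mouse Casp4) after sensing bacterial lipopolysaccharide in the cytosol, also cut gasdermin D, whose fragment forms pores in the cell membrane. Outside the cell the receptor antagonist (Il1rn) competes with IL-1 for its receptor, and the decoy receptor (Il1r2) binds IL-1 without signalling. In marrow, neutrophils and monocytes are known sources of Il1b, and IL-1 is known to drive haematopoietic progenitors towards the myeloid lineage.

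Levels are in FPKM, fragments scaled to exon length and to the size of the library, so that genes can be compared per length. Each library held 21055 to 22830 genes with a value over 0. The files hold no counts; the spacing of the lowest values put the depth at roughly 16000000 to 18000000 fragments per library. Marker genes of neutrophils, erythroid cells, B cells, monocytes and macrophages were present in every library, and the 4 markers of skeletal muscle summed to at most 2.4 FPKM. A code in the file headers, whose meaning is not stated, is 1 in control replicate 1 and CUMS replicate 1 and 2 elsewhere. The replicates with code 1 stood apart in several members. They held 21057 and 21055 genes over 0, against 22457 to 22830 in the libraries of code 2. Their summed FPKM was 658595 and 653026, against 561563 to 602591. In the comparison of CUMS with control by limma on log2(FPKM + 1), 132 of 12302 tested genes passed an adjusted p (Benjamini-Hochberg) of 0.05, which is 1.07%; 76 were higher and 56 lower in CUMS. With library totals made equal, 65 genes were higher and 101 lower.

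None of the 9 members tested passed, and Il1a lay under the minimum level. Of the 9, 2 had higher values in CUMS (Il1b and Il1r2) and 7 had lower ones, with a median log2 difference of −0.16 beside −0.00169 over all tested genes. The CUMS and control libraries did not overlap for 5 of the 9 (Il1b, Il1r2, Il1rn, Il18 and Gsdmd), against 22.1% of all tested genes. An unadjusted p under 0.05 was found for 3 of the 9 (Il1b, Il1rn and Il1r2), against 15.4% of all. With the header code as a term the same 3 passed at an adjusted p of 0.05, where 13.4% of all tested genes did. In the 4 libraries of code 2 alone the same 3 passed, as did 17.7% of all tested genes. With the replicate number as a block none passed, while 7.8% of all tested genes did. The differences were small: the largest was 0.27 in size on the log2 scale, a size that 19.9% of all tested genes reached, while the smallest difference among genes that passed was 0.50.

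By level, Il1b stood first with a mean of 57.6 FPKM over the 6 libraries, followed by Gsdmd at 34.1 FPKM and Il1r2 at 26.8 FPKM. Pycard at 19 FPKM, Il1rn at 18 FPKM and Casp1 at 15.3 FPKM lay close together: Pycard exceeded Il1rn in 4 of 6 libraries, and Il1rn exceeded Casp1 in 5 of 6. Casp4 at 8.77 FPKM exceeded Nlrp3 at 7.1 FPKM in 5 of 6. Every other neighbour in the order kept its place in all 6 libraries, down to Il18 at 2.97 FPKM and Il1a at 0.538 FPKM. Among all tested genes Il1b ranked 1073 by mean level.

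**Figure D1:**
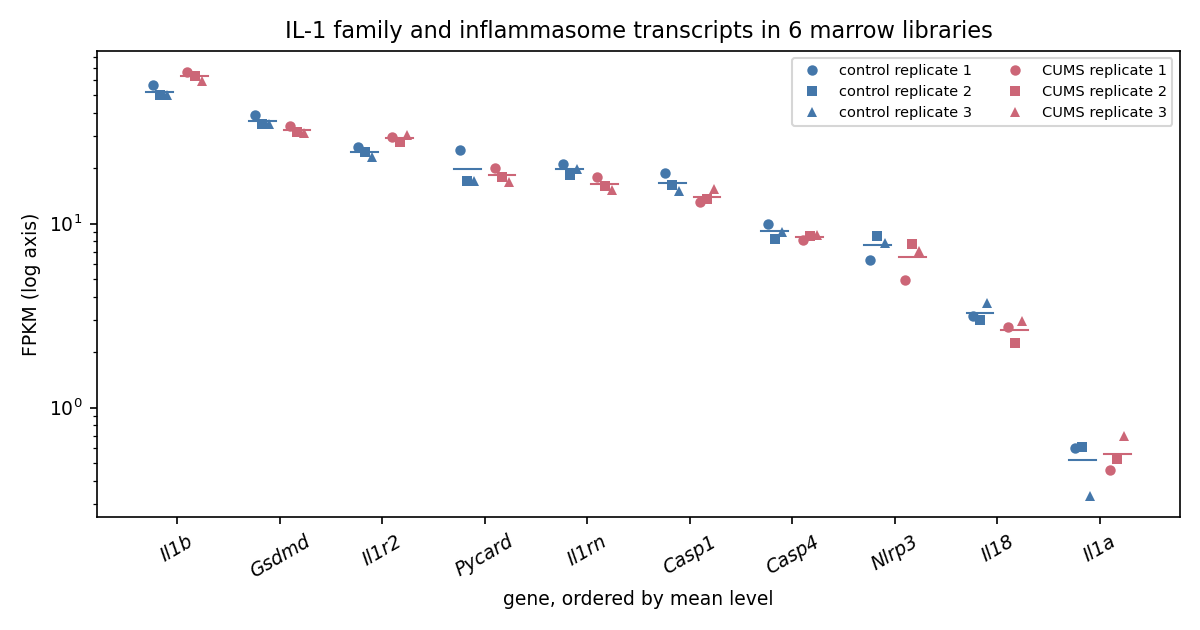
FPKM of the 10 genes in each library (log axis; blue, control; red, CUMS; marker shape, replicate number; bars, mean of 3 libraries). Il1b and Il1r2 sat higher in all 3 CUMS libraries than in any control library, and Il1rn, Gsdmd and Il18 lower; Il1a was under 1 FPKM throughout.

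Il1b, which encodes IL-1 beta, was at 56.3, 50.1 and 49.9 FPKM in control replicates 1 to 3 and at 66.6, 63.2 and 59.6 FPKM in the CUMS replicates. Every CUMS library was above every control library, and replicate 1 was the highest in each group. The means were 52.1 ± 3.63 and 63.1 ± 3.5 FPKM (SD, n = 3 libraries each), a ratio of 1.21. On the log2(FPKM + 1) scale the difference was 0.27 (95% interval 0.06 to 0.49, limma adjusted p = 0.226). The adjusted p of limma was 0.0228 with the header code as a term and 0.0545 with the replicate block. The difference was 0.24 between the replicates with code 1 and 0.29 among those with code 2.

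Il1rn, the receptor antagonist, went the other way, with 21.1, 18.4 and 19.9 FPKM in control and 17.8, 15.9 and 15.2 FPKM in CUMS. No CUMS library reached a control library, although CUMS replicate 1 lay close under control replicate 2. The means were 19.8 ± 1.39 and 16.3 ± 1.35 FPKM (log2 difference −0.27, 95% interval −0.50 to −0.03, limma adjusted p = 0.267). With the header code as a term the limma adjusted p was 0.0361, and with the replicate block 0.0712. The differences within code 1 and code 2 were −0.24 and −0.28.

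The ratio of the transcript of the agonist to that of its antagonist was also taken within each library. There a difference in depth or scaling between libraries cancels. The libraries hold RNA only, so the ratio says nothing of protein levels. Il1b stood at 2.66, 2.73 and 2.51 times the level of Il1rn in control and at 3.74, 3.98 and 3.92 times in CUMS. The mean ratio was 2.63 ± 0.111 in control and 3.88 ± 0.125 in CUMS. Since Il1b was higher and Il1rn lower in every CUMS library, the ratio had to separate the groups, and it restates their opposite differences as a description, with no test. On the log2 scale the ratio differed by 0.56, or 1.47-fold, with 0.49 between the code 1 replicates and 0.59 among the code 2 replicates. Leaving out any 1 library kept the difference between 0.53 and 0.59.

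Il1r2, the decoy receptor (chr1:40074079-40125231), was at 25.9, 24.6 and 22.9 FPKM in control and at 29.5, 27.9 and 30.3 FPKM in CUMS. It thus had higher values in all 3 CUMS libraries, as Il1b did. Means were 24.5 ± 1.48 and 29.2 ± 1.25 FPKM (log2 difference 0.25, 95% interval 0.04 to 0.46, limma adjusted p = 0.252). With the header code as a term the limma adjusted p was 0.0491, and with the replicate block 0.0934. The ratio of Il1b to Il1r2 was 2.18, 2.03 and 2.18 in control and 2.26, 2.27 and 1.97 in CUMS. These ranges overlapped (log2 difference 0.02, exact two-sided permutation p = 0.6, where 3 against 3 libraries allow no p under 0.1), and the sign of the difference turned when control replicate 2, CUMS replicate 1 or CUMS replicate 2 was left out, with values from −0.02 to 0.09 over the 6 such comparisons.

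**Figure D2:**
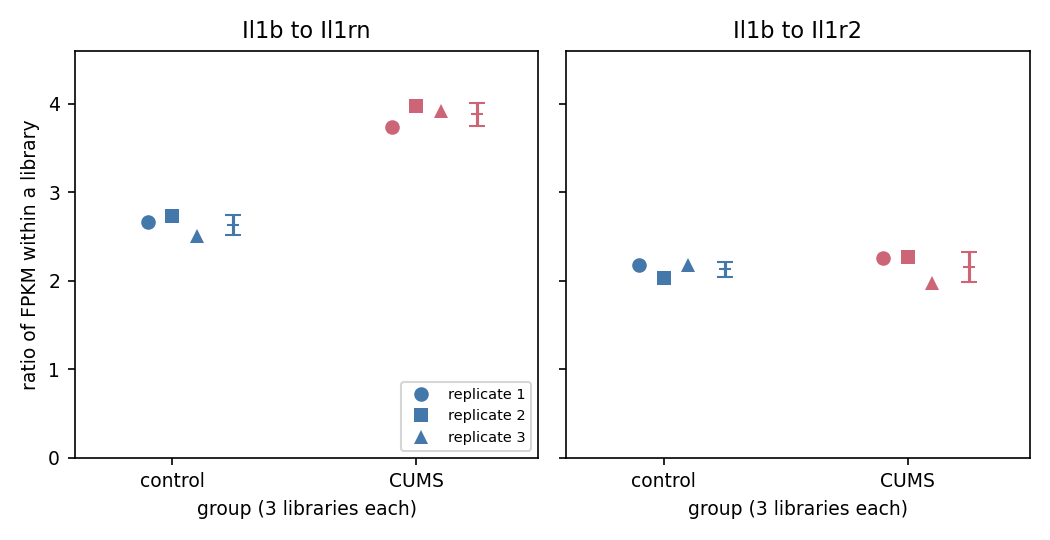
Ratio of FPKM within a library for Il1b over Il1rn (left) and Il1b over Il1r2 (right), by group; points are libraries, and the bars to their right show mean ± SD of 3. The ratio to Il1rn was 2.51 to 2.73 in control and 3.74 to 3.98 in CUMS, while the ratio to Il1r2 overlapped between the groups.

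The promoter sequences of Il1b and Il1rn are shown because the transcripts of these genes differed in opposite directions. The genes, which encode the agonist and the antagonist, are both on chromosome 2 but far apart. Il1b lies at chr2:129364570-129371139 on the minus strand, and Il1rn at chr2:24336853-24351494 on the plus strand (GENCODE M21, GRCm38, the assembly also called mm10). Each line gives the 250 bases before the start site, 5′ to 3′ on the strand of the gene, from RefSeq (GRCm38.p6), at chr2:129371140-129371389 for Il1b and at chr2:24336610-24336859 for Il1rn. For Il1rn the first of the start sites listed was used, and values per gene do not show from which site its transcripts started. The windows of its other start sites, at chr2:24345041-24345290 and chr2:24345121-24345370, held none of the motifs searched for. Capitals mark a TATA box (TATAAA) in Il1b and an AP-1 motif (TGANTCA) in Il1rn.
Il1b: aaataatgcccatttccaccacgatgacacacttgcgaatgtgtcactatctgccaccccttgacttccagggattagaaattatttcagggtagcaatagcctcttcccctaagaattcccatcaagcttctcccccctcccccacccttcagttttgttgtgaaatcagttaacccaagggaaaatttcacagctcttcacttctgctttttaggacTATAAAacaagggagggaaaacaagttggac
Il1rn: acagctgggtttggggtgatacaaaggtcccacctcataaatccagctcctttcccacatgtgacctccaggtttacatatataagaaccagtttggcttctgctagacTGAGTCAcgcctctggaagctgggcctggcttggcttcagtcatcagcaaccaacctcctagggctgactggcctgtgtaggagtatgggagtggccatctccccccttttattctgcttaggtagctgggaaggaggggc

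The TATA box letters were at −31 to −26 from the start of Il1b and were found, on the strand of the gene, in 7.59% of all 32851 promoter windows of this length. The AP-1 match of Il1rn was at −141 to −135, and 6.75% of windows held that motif on either strand. The motif search also covered, on both strands, NF-kB, PU.1 (GAGGAA), C/EBP (TTGCNNAA) and the interferon-stimulated response element (ISRE), held by 7.25%, 23.3%, 9.56% and 0.304% of windows. RefSeq windows matched 9 of the 10 members, 13 windows in all. NF-kB matches lay in those of Casp4 and Nlrp3, PU.1 in those of Il1a, Nlrp3, Pycard and Casp1, C/EBP in that of Pycard, AP-1 also and a TATA box also in that of Il1a, and the ISRE in none. In Casp4 a pair of the NF-kB matches overlap each other. A match describes the letters of the window and says nothing of binding in these cells.

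The other ligands of the set were scarce. Il18 (chr9:50554827-50581840) was at 3.16, 3.01 and 3.68 FPKM in control and 2.74, 2.24 and 2.97 FPKM in CUMS; the groups did not overlap, but control replicate 2 and CUMS replicate 3 nearly met. Its log2 difference was −0.23 (95% interval −0.53 to 0.06, limma adjusted p = 0.433). Il1a, which encodes IL-1 alpha (chr2:129299610-129309972), was at 0.606, 0.614 and 0.33 FPKM in control and 0.456, 0.523 and 0.702 FPKM in CUMS, roughly 11 to 25 fragments per library. It missed the minimum of 1 FPKM in at least 3 libraries and was not tested; its values overlapped, and exons of Gm14023 on the opposite strand overlap its own over 222 bp.

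The genes of the inflammasome itself had lower values in CUMS than in control, and none passed the test. Nlrp3, the sensor (chr11:59541568-59566956), was at 6.32, 8.6 and 7.87 FPKM in control and 4.91, 7.76 and 7.12 FPKM in CUMS, with replicate 1 the lowest in each group and the groups overlapping. The log2 difference was −0.19 (95% interval −0.60 to 0.22, limma adjusted p = 0.667), and leaving out 1 library moved it to between −0.30 (control replicate 1 or CUMS replicate 2 left out) and −0.02 (CUMS replicate 1 left out). Pycard, the adaptor (chr7:127989708-127993867), showed the opposite pattern over replicates, with 25.2 FPKM in control replicate 1 and 17.1 FPKM in each of control replicates 2 and 3, beside 20.1, 18 and 16.8 FPKM in CUMS. Its difference was −0.09 (limma adjusted p = 0.853) and turned to 0.09 without control replicate 1. Exons of Gm45205 on the opposite strand overlap those of Pycard over 485 bp, and whether counting used strand is not stated.

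Casp1, the protease that cuts the IL-1 beta precursor (chr9:5298517-5307265), was at 18.8, 16.2 and 15 FPKM in control and 13.1, 13.6 and 15.4 FPKM in CUMS. Only CUMS replicate 3 reached into the control range. The log2 difference was −0.23 (95% interval −0.49 to 0.04, limma adjusted p = 0.395), made up of −0.49 between the code 1 replicates and −0.10 among the code 2 replicates. Casp4, its neighbour 1562 bp away on chromosome 9 (chr9:5308828-5336783) and a paralog, was at 9.97, 8.24 and 9.05 FPKM in control and 8.17, 8.52 and 8.68 FPKM in CUMS. Its groups overlapped (log2 difference −0.09, 95% interval −0.33 to 0.15, limma adjusted p = 0.744), with −0.26 for code 1 and −0.01 for code 2. Reads of such paralogs can be hard to part.

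Gsdmd, the pore protein (chr15:75862327-75867408), was the most abundant of the inflammasome genes, at 39.1, 34.7 and 34.6 FPKM in control and 33.8, 31.4 and 31.2 FPKM in CUMS. The groups did not overlap, and the means were 36.1 ± 2.6 and 32.1 ± 1.44 FPKM (log2 difference −0.16, 95% interval −0.38 to 0.05, limma adjusted p = 0.458). The intervals of the 5 inflammasome genes span from 0.662-fold for the lower bound of Nlrp3 to 1.22-fold for the upper bound of Pycard. They are those of the fit with group only, on the log2(FPKM + 1) scale and before adjustment over genes. Larger changes lie outside the intervals of all 5 in that fit. Leaving out CUMS replicate 2 moved the lower bound of Nlrp3 from −0.60 to −0.75 on the log2 scale.

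**Figure D3:**
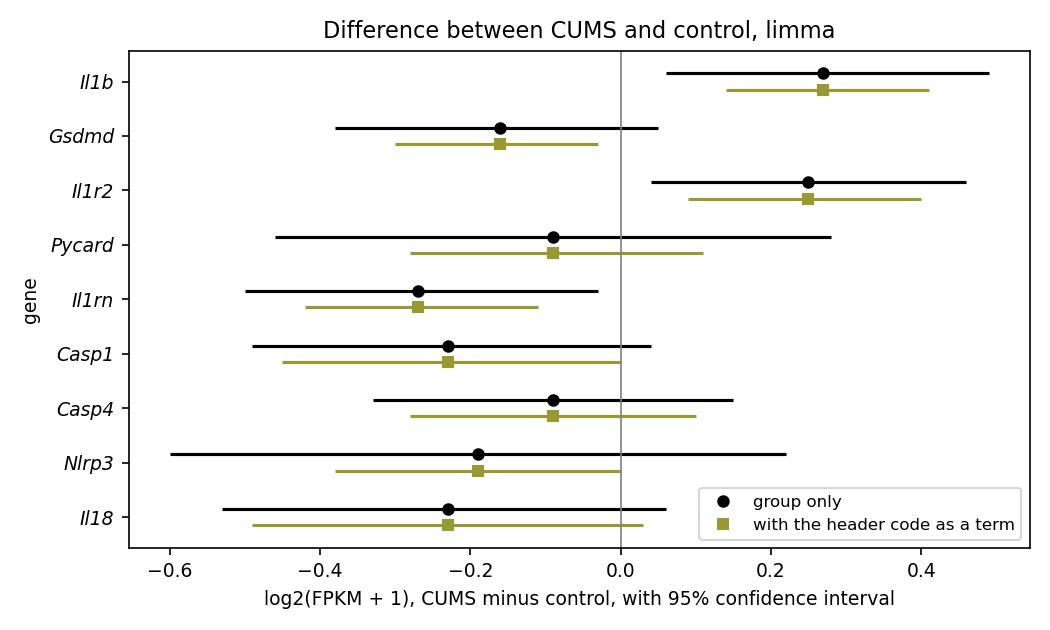
Difference in log2(FPKM + 1), CUMS minus control, with the 95% interval from limma for the 9 tested genes, with group only (black circles) and with the header code as a term (green squares). With group only, the intervals of Il1b, Il1r2 and Il1rn leave out 0 before adjustment over all genes, and those of the 6 other genes include it.

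The other genes of the pathway, 55 in 6 roles, were all found in the files, 4 of them under older symbols. Of the 44 tested none passed, 17 had higher and 27 lower values in CUMS, and the median log2 difference was −0.10. An unadjusted limma p under 0.05 was found for 9 of the 44, against 15.4% of all tested genes, and 14 had groups that did not overlap, against 22.1%. With the replicate block 4 passed, 1 higher and 3 lower, beside 7.8% of all tested genes; with the header code as a term 4 passed as higher and 5 as lower, beside 13.4% of all.

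Il36g, the gene of IL-36 gamma and the only other IL-1 family ligand above the minimum, is listed as Il1f9. It was at 36.5, 35.4 and 32.7 FPKM in control and 26.4, 26 and 24.6 FPKM in CUMS, so that its level in control was close to that of Gsdmd, and every CUMS library was below every control library. The means were 34.9 ± 1.95 and 25.7 ± 0.917 FPKM (log2 difference −0.43, SE 0.0878, limma adjusted p = 0.0727, and 0.0171 with the replicate block). Il33, at most 0.199 FPKM, Il36a, Il36b, Il36rn and Il1f10 were at or near 0.

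Among the 8 receptors and binding proteins 7 had higher values in CUMS (median log2 difference 0.21, and 0.05 without control replicate 1). Il1rl1, the IL-33 receptor, had the smallest p of the group. It was at 3.47, 4.79 and 4.9 FPKM in control and at 5.78, 5.78 and 6.27 FPKM in CUMS. The log2 difference was 0.38 (limma adjusted p = 0.242). The limma adjusted p was 0.0385 with the header code as a term and 0.0672 with the replicate block. Il1r1, the signalling receptor of IL-1, was low throughout, at 0.874 to 1.01 FPKM in control and 1.3 to 1.8 FPKM in CUMS. Its limma adjusted p was 0.262, with 0.079 for the header code as a term and 0.0991 for the block. Il1r1 thus stood far under the decoy receptor Il1r2 per length in every library.

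The 17 genes of signalling from the receptors were divided, with 8 higher and 9 lower (median −0.09). Irak2, a kinase of the IL-1 receptor complex, had the smallest p. It was at 10.9, 12.4 and 12.5 FPKM in control and 9.13, 10.2 and 9.62 FPKM in CUMS. The log2 difference was −0.28 (limma adjusted p = 0.239). The limma adjusted p was 0.0342 with the header code as a term and 0.0649 with the replicate block. Nfkbia, the inhibitor that NF-kB itself induces, is named after its values were seen because it was the 1 gene of the list higher with the block. It was at 67.9, 54.3 and 55.5 FPKM in control and at 85, 72 and 68.5 FPKM in CUMS, with replicate 1 the highest in each group (log2 difference 0.34, limma adjusted p = 0.261, and 0.0306 with the block).

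All 8 tested sensors other than Nlrp3 had lower values in CUMS (median −0.15), and none passed. Without CUMS replicate 1 only 4 of the 8 had lower values (median −0.04), with Aim2, Nlrc4, Naip5 and Naip6 above 0, and without control replicate 2 there were 5 (median −0.08). Nlrp1a had the smallest p, at 2.17, 2.46 and 2.58 FPKM in control and 1.63, 1.86 and 1.65 FPKM in CUMS. The log2 difference was −0.33 (limma adjusted p = 0.231). The limma adjusted p was 0.0538 with the header code as a term and 0.0841 with the block. The Naip genes of this group are close paralogs whose reads may be shared.

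Trim30a, an interferon-inducible protein known to restrain NLRP3, had the smallest p of the 8 triggers and regulators. It was at 20.7, 21.9 and 20.9 FPKM in control and 11.4, 15 and 14.3 FPKM in CUMS, with every CUMS library below every control library (log2 difference −0.62, SE 0.116, limma adjusted p = 0.0612, and 0.0129 with the block). Ninj1, which ruptures the membrane of dying cells after gasdermin pores form, was at 43.7, 39 and 34.4 FPKM in control and 34.3, 24.6 and 27.2 FPKM in CUMS. Its groups nearly met (log2 difference −0.44, limma adjusted p = 0.214, and 0.032 with the block), with replicate 1 the highest in each.

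**Figure D4:**
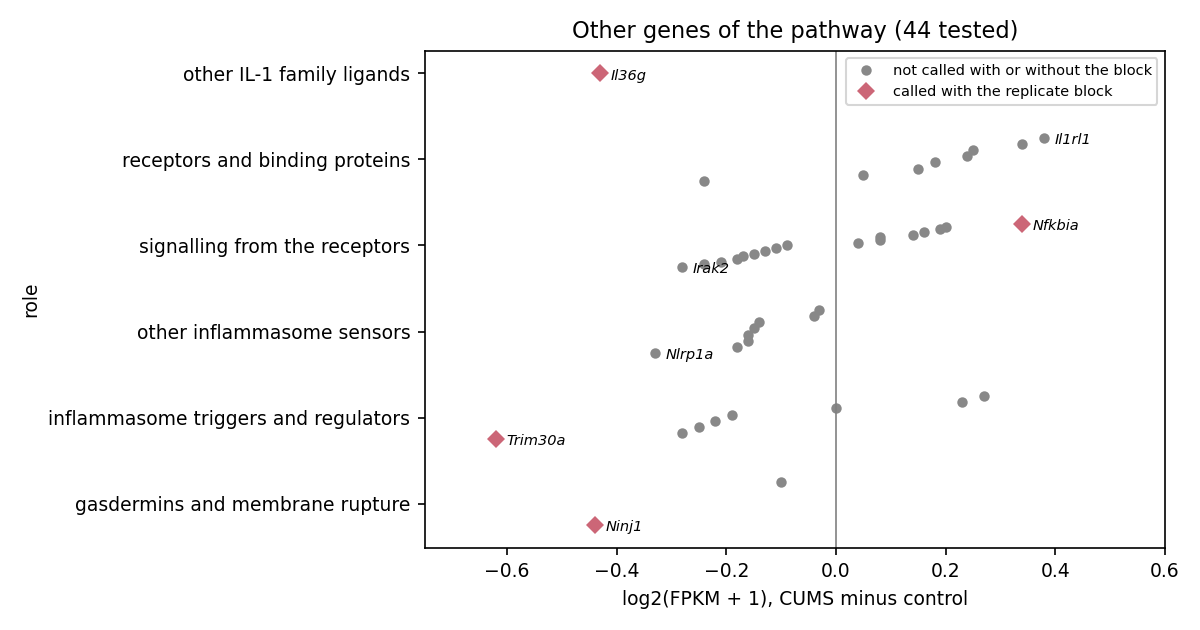
Difference in log2(FPKM + 1), CUMS minus control, of the 44 tested pathway genes by role; each point is a gene, and red diamonds passed an adjusted p of 0.05 with the replicate block. The receptors lie mostly above 0 and the inflammasome sensors below it with all 6 libraries (4 of 8 without CUMS replicate 1), and the 4 diamonds are Trim30a, Ninj1, Il36g and Nfkbia.

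Other transcripts moved between the groups alongside these genes, and their part in the differences above was not tested. All 19 tested interferon-stimulated genes had lower values in CUMS, and 12 of them passed the test (median log2 difference −0.85). Of 13 tested immediate-early genes 12 had higher values, and 5 passed as higher (median 0.61). Over all tested genes 1.07% passed. Both lists were chosen with earlier results of these data known, so that these counts are a description and no test of the lists. The 10 mature neutrophil markers summed to 47200 to 65600 FPKM in control and 49500 to 51700 FPKM in CUMS, ranges that overlap, and none passed the test (median −0.16). A single neutrophil marker reached 25700 FPKM. The 8 monocyte markers summed to 918 to 1160 and 930 to 1010 FPKM, and 2 of them passed as lower (median −0.36). A single monocyte marker reached 849 FPKM, so that this sum leans on 1 gene. Those of macrophages (8 markers) summed to 192 to 246 FPKM in control and 160 to 174 FPKM in CUMS, and none passed (median −0.33). Markers of stroma and bone (5) summed to 70.7 to 73.7 FPKM in control and 93.1 to 99.9 FPKM in CUMS, with 1 that passed as higher (median 0.36). The 6 B cell markers summed to 470 to 548 FPKM in control and 394 to 440 FPKM in CUMS, and none passed (median −0.29). The 6 erythroid markers summed to 104000 to 123000 FPKM in control and 120000 to 148000 FPKM in CUMS, ranges that overlap, and none passed (median 0.17). No marker of these 6 lists was at 0 in any library. In marrow as a whole, fewer cells of a type and less RNA per cell cannot be told apart.

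Il1b and Il1rn had differences of the same size at 2 decimals (0.27 and −0.27); that of Il1b was the larger before rounding, but with library totals made equal Il1rn had −0.31 and Il1b 0.23. The tested genes closest to Il1b in profile were Wdr5, Cyb5r3, Art4, Eif4b and Gins3. Closeness was the root mean square difference of log2(FPKM + 1) over the 6 libraries after centring each gene on its mean, which was 0.0236 for Wdr5 and up to 0.0314 for the others. Being chosen for likeness to Il1b, which did not pass, they have similar differences by choice. None of the 5 passed the test (limma adjusted p from 0.243 to 0.343).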

How the data were processed

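Bone marrow RNA was extracted with TRIzol, made into TruSeq libraries and read in pairs of 151 bp, per the labels' protocols. Tools named in the submitters' processing notes, with mm10 as the build, are HISAT2 2.1 (an aligner), featureCounts 1.6.4 (a read counter), DESeq2 2.11.40.6 (a count test), cutadapt 1.16.5 and bcl2fastq 2.19; which of them made the values is not given in the sources used here. The deposited values are read as FPKM, since multiplying FPKM by kilobases of exon gave totals of 937809 to 987723 in each library; no count was recovered from them.

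The test covered genes that reached 1 FPKM in 3 or more of the 6 libraries. It was made by limma 3.58.1 (R 4.3.3) with a trend on log2(FPKM + 1), with group as the only term. It was checked on simulated data without header code or replicate structure. The changes planted there were larger than those of the members, so the check does not cover differences of their size. Tables and plots were made with pandas 2.3.3, matplotlib 3.10.9 and numpy 2.4.6 under Python 3.11.15. The ratio of Il1b to Il1r2 was compared by exact permutation; for that of Il1b to Il1rn the planned test is not given, since the members' own values fixed its outcome. Alternatives were another pseudocount, filters, scalings, the replicate block, the header code and leaving out each library. Deviations from the group mean correlated across genes by 0.689, 0.452 and 0.363 for replicates 1, 2 and 3 of the groups, while crossing replicates 2 and 3 gave 0.459 and 0.362; no source names pairs. Since each same-number correlation exceeded 0.1, values with the replicate block are given where they change a call. They are also given for Il1b, Il1rn, Il1r2, Il1rl1, Il1r1, Irak2 and Nlrp1a. The test itself has no block. The members and lists were chosen with earlier results of these data known. Named were all members, pathway genes that passed or else the smallest p in each role, and the 5 nearest profiles; Nfkbia, Il1r1 and the scarce ligands were added after their values were seen.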

Additional observations from a re-analysis of the deposited data

How the results depend on the processing

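Over all tested genes, 43 passed with no filter, 199 with quantile normalization, 959 with the replicate block, 1645 with the header code as a term, 2173 in the 4 libraries of code 2 alone, and 17 to 262 when 1 library was left out (17 without control replicate 3 or CUMS replicate 3, 262 without control replicate 1). Of the members, 3 passed with the code as a term and 3 in the code 2 libraries, and 0 in the other fits, those with 1 library left out included. Of the pathway list 1 passed with quantile normalization (Trim30a), 4 with the block, 9 with the code as a term and 9 in the code 2 libraries; leaving out 1 library gave 0 to 1 (Serpinb1a, an inhibitor of neutrophil proteases, without control replicate 1). The difference in the Il1b to Il1r2 ratio ranged from −0.02 to 0.09 and that of Il1a from −0.05 to 0.09 when 1 library was left out. That of Pycard ranged from −0.18 to 0.09, and was 0.02 in the code 2 libraries. The cause of these shifts was not tested. Among 135 member values under alternative settings, 125 kept direction and, for tested members, side of the threshold, while 6 newly passed it and 4 changed sign. For Il1a, which has no test, a value was counted as kept if the sign held and the shift was under the SD within groups. Apart from the calls given here and in the report, the replicate block changed no call of a member or pathway gene. Depth is known only roughly, and Il1a, at about 11 to 25 fragments per library, was not tested.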
